A study of Mus musculus with 12 samples.

Results

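The genes described here are 46 mouse genes of the endoplasmic reticulum (ER): chaperones, folding enzymes, parts of the degradation machinery, stress sensors with their transcription factors, the translocon and the signal peptidase. They were chosen by symbol from a list and make up 46 of the 55367 genes of the count table. Each of the 46 was found in the table, and each was expressed enough to be among the 17076 genes tested.

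Proteins bound for secretion or for membranes enter the ER through the Sec61 channel, lose their signal peptide there, receive sugars and disulfide bonds, and fold with the help of lumenal chaperones. Chains that fail to fold are pulled back to the cytosol and destroyed. When unfolded chains build up, the sensors IRE1, PERK and ATF6 raise chaperone and degradation genes and slow translation, and the PERK arm acts through ATF4 and CHOP; gland cells, which secrete much protein, rely heavily on this system.

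RNA sequencing was done on mouse tongue organoids, cultured 3-dimensional epithelial tissues, of 2 taste papillae at the back of the tongue, the circumvallate (CVP) and the foliate (FoP). Each line gave 2 wild type libraries and 4 libraries labelled Foxe1 knock-out by genetic modification, which are clones 2.9 and 2.10 of CVP and clones 2.4 and 2.5 of FoP, each in duplicate. Foxe1 is a forkhead transcription factor, and the comparisons asked how organoids labelled as lacking it differ from wild type. No age, sex or further treatment is labelled. A wild type line was taken as 1 culture, and no wild type is labelled as a clone, so the genotype cannot be told apart from the derivation of a clone. Nothing says that duplicates came from separate cultures, so p-values measure only the spread between these libraries, which between duplicates may be technical. In a knock-out arm that spread also holds the difference between its 2 clones.

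The libraries held 59.3 to 73.6 M counts. Levels below are CPM, counts per M of a scaled library total, and a gene is said to have risen or fallen only where its adjusted p (edgeR quasi-likelihood test, Benjamini-Hochberg over all tested genes) was under 0.05. Foxe1 transcript did not separate the groups. It was at 15.4 and 15.9 CPM in CVP wild type, 23.7 and 22.7 CPM in clone 2.9 and 7.33 and 8.46 CPM in clone 2.10. In FoP it was at 16.3 and 16 CPM in wild type, 22.4 and 20 CPM in clone 2.4 and 11.2 and 11.5 CPM in clone 2.5. Clones 2.9 and 2.4 thus lay above the wild type of their line and clones 2.10 and 2.5 below it. "Knock-out" therefore stands for libraries labelled so, and each direction below rests on the labels. Epithelial markers were high everywhere (9939 to 15230 CPM summed over 7 genes), but their sum was not even across genotype in CVP. There the clones (12820 to 15230 CPM) exceeded the wild type pair (9939 and 10410 CPM). In CVP 2 of the 7 genes rose and 3 fell, against 23.5% and 22.9% of all genes tested. The FoP ranges overlapped, with 11480 and 11550 CPM for wild type and 11090 to 13930 CPM for the clones. Taste cell markers summed to 23.87 and 24.79 CPM for CVP wild type against 14.41 to 19.35 CPM for its clones, and overlapped in FoP. Ptprc, which marks blood cells, was at 0 in each library, and the 9 plasma cell and B cell markers summed to 0.0324 to 0.555 CPM. Of 10 listed markers of gland cells, 7 were tested and 5 fell in each line (22.9% of all genes in CVP and 15.3% in FoP). Their summed level went from 328.7 and 414 CPM in CVP wild type to between 87.2 and 258 CPM in knock-out. In FoP the sum did not follow genotype. It was 102 and 122 CPM in wild type, 54.9 and 54.5 CPM in clone 2.4 and 148.5 and 156 CPM in clone 2.5. Bpifb2 of that list was at 0 in each library. Of 8 immune markers, 4 were tested and 3 fell in CVP and 2 in FoP, against the same shares of all genes. Their sums were 319 and 392 CPM in CVP wild type against 66.6 to 114 CPM in its clones. In FoP they were 201 and 233.5 CPM against 103 to 168 CPM. Most of these sums was Cd14. The part of these markers in the results below was not tested.

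Most ER genes were lower in CVP knock-out organoids. Of the 46 genes, 24 fell and 3 rose, against 22.9% lower and 23.5% higher among all genes tested, and the median log2 fold change was -0.24 against 0.03 for all genes. The summed level of the 46 genes was 11020 and 11190 CPM in the wild type libraries, and it lay between 9237 and 9680 CPM in the 4 libraries of the clones. In bulk samples fewer cells of a type and less RNA per cell cannot be told apart. The falls were mostly small: Ddit3 was the only gene past 2-fold in this line. In FoP, 13 genes fell and 2 rose, with 15.3% lower and 13.5% higher among all genes, and the median was -0.08 against 0.01. The summed level was 9730 and 10410 CPM in FoP wild type, while the 4 libraries of the clones had 8970 to 9612 CPM, so the groups came close to each other without overlap. The share of falling genes was 52.2% in CVP and 28.3% in FoP. Some calls rest on counting duplicates as samples: with duplicates summed per culture, 11 genes fell in CVP (10.6% of all genes), 1 fell in FoP (1.53%) and none rose. Without FoP wild type 2 the FoP count of falls was 5 (8.56% of all genes), near the background, and of the 13 falls those of Hspa5, Hsp90b1, Hyou1, Dnajb9, Derl2, Atf6, Ddit3 and Ssr3 were lost. The 11 were Hspa5, Hsp90b1, Hyou1, Dnajb9, Edem1, Edem2, Derl1, Atf6, Sec61g, Ssr3 and Spcs3, and in FoP it was Asns; these calls were kept under all 26 alternatives.

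**Figure D1:**
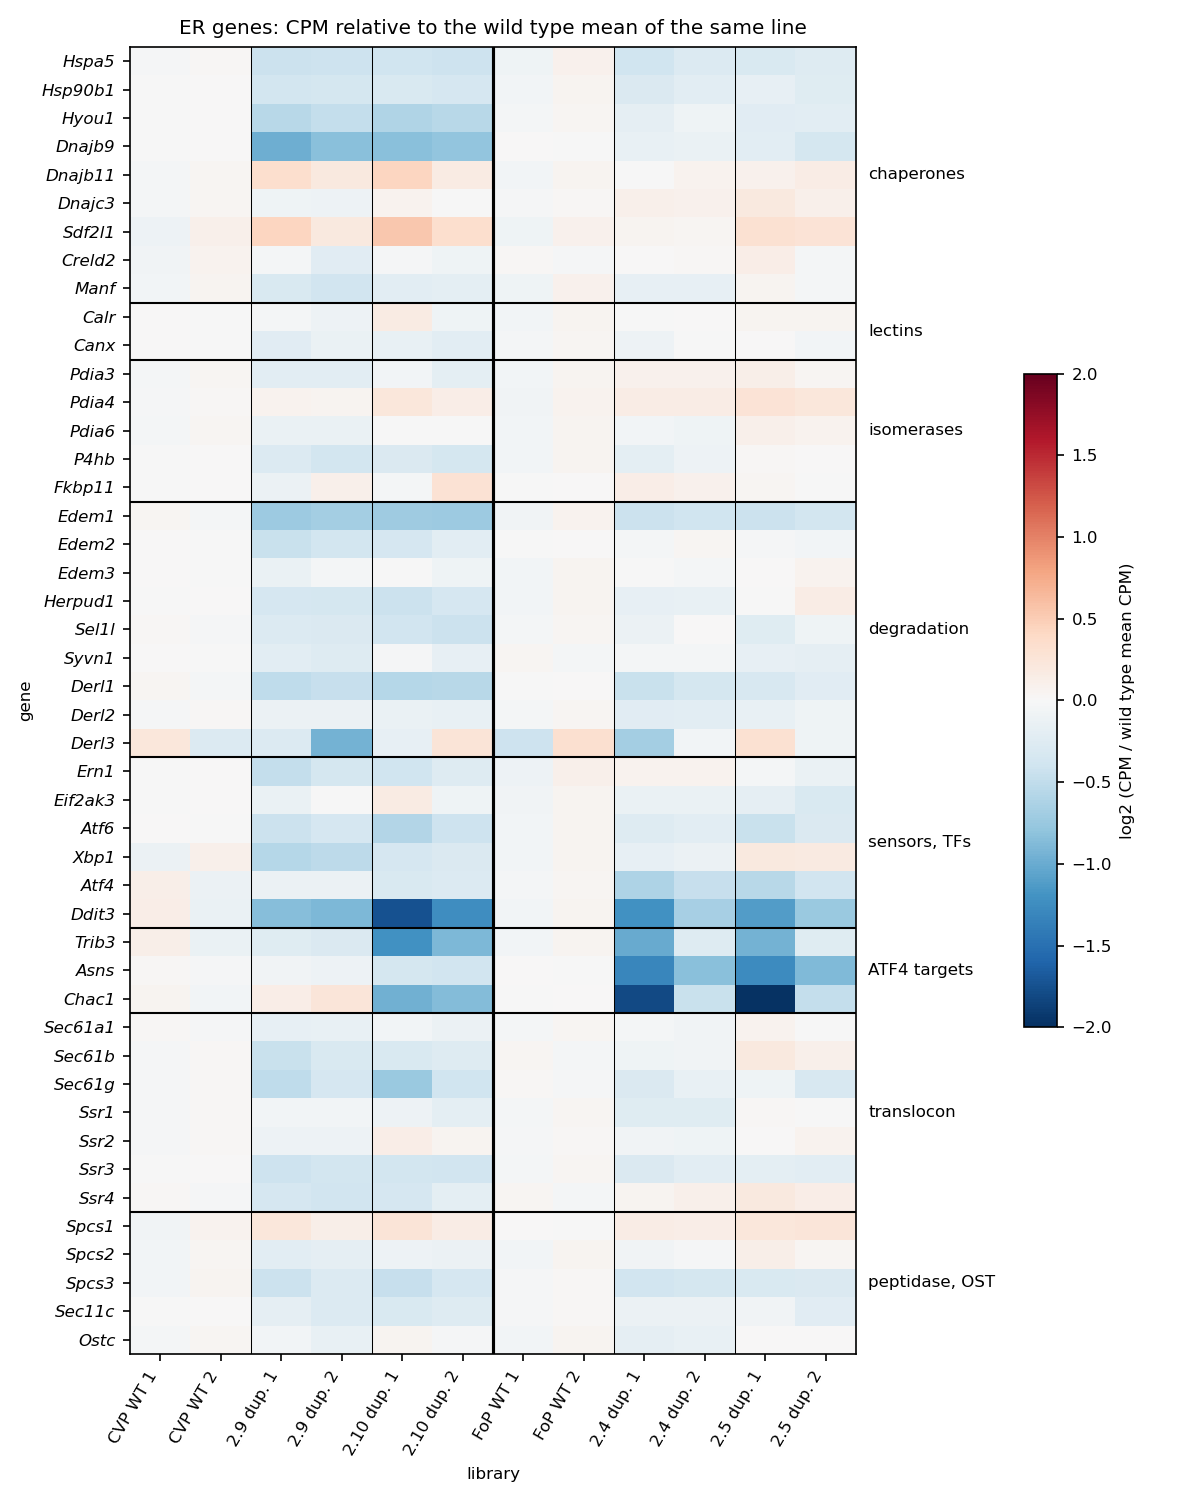
Each cell is the CPM of a gene (vertical axis, by role) in a library (horizontal axis), as log2 of its ratio to the wild type mean of the same line. Blue prevails in the 4 CVP knock-out libraries, and in FoP the strongest blue is in Ddit3, Trib3, Asns and Chac1.

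Promoters of these genes were searched for control elements the pathway is known for, and a few matches are printed because the gene results below can be set beside them. RefSeq windows (GRCm38.p6) from 250 bases before to 50 after the start were at hand for 37 of the 46 genes. The ER stress response element ERSE, CCAAT and CCACG with 9 bases between them on either strand, which ATF6 and XBP1 are known to bind, was in 9 of the 37 windows (24.3%) and in 0.137% of the 27025 symbols of the table. The shorter ERSE-II, ATTGG and CCACG with 1 base between them, was in 2 of the 37 and 0.0444% of all, and the C/EBP-ATF element CARE, TGATGNAAN, which ATF4 is known to bind, in 4 (10.8%) and 4.5% of all. The XBP1 element UPRE, TGACGTGG, was in none of the 37 and 0.714% of all. In the lines that follow, all on the gene's own strand, capitals mark the match; a match on the other strand reads as its reverse complement.
Hspa5, ERSE, chr2:34772020-34772048: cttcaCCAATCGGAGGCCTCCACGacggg
Hsp90b1, ERSE, chr10:86705633-86705661: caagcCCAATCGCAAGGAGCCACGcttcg
Canx, ERSE, chr11:50325795-50325823: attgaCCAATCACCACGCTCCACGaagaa
Dnajc3, ERSE, chr14:118937822-118937850: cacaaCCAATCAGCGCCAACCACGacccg
Calr, ERSE, chr8:84847070-84847098: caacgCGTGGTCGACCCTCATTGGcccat
Herpud1, ERSE-II, chr8:94386372-94386392: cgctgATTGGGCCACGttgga
Asns, CARE, chr6:7693219-7693237: ccacaTGATGAAACttccc
Chac1, CARE, chr2:119351043-119351061: ctgccGTTGCATCActcct

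A match is a description of letters, not of a site in use. The windows were placed by RefSeq starts. The matches of Hspa5 and Asns lie inside the gene spans given for them below, which come from another annotation and begin further upstream. The 9 genes with an ERSE were Hspa5, Hsp90b1, Dnajc3, Creld2, Calr, Canx, Pdia6, Syvn1 and Derl3. In CVP, Hspa5, Hsp90b1 and Canx fell and none of the 9 rose, with a median log2 fold change of -0.16. Among all genes tested, 22.9% fell and 23.5% rose in CVP. Of the 28 genes whose window had no ERSE, 15 fell and 3 rose in CVP, with a median of -0.29. In FoP, Hspa5 and Hsp90b1 fell, where 15.3% of all genes fell and 13.5% rose. The median of the 9 was -0.04 there, and the 28 others had 7 lower, 2 higher and a median of -0.05. The 4 genes with a CARE were Herpud1, Trib3, Asns and Chac1; in Trib3 it lay past the start, as did the ERSE-II of Dnajb11. Their log2 fold changes ran from -0.60 to -0.22 in CVP and from -1.05 to -0.04 in FoP; Herpud1 fell in CVP and Asns in FoP.

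**Figure D2:**
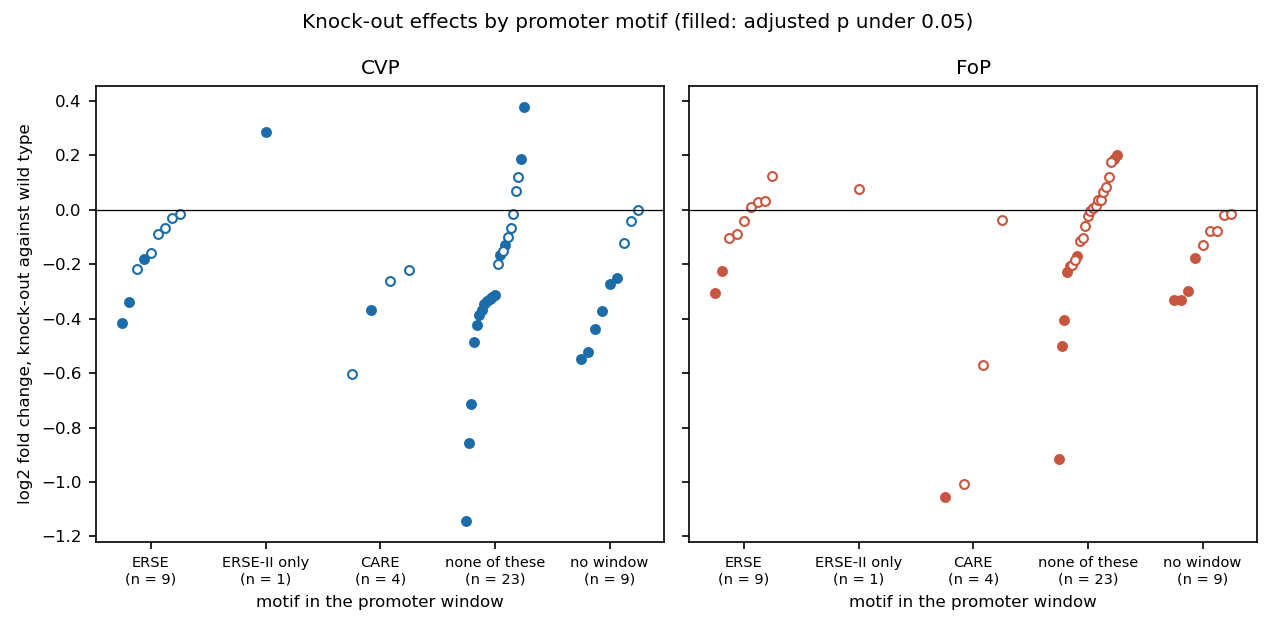
Log2 fold changes (vertical axis) of the 46 genes in CVP and FoP, by the element found in the promoter window (horizontal axis); filled points passed an adjusted p of 0.05. Herpud1, which has both a CARE and an ERSE-II, is drawn under CARE, and the largest falls in CVP lie among the 23 genes with none of these elements.

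The lumenal chaperones lay lower in knock-out of both lines for 4 of 9 genes (10.1% of all genes). Hspa5 on chromosome 2 (34771970 to 34777547, plus strand, GRCm38) encodes BiP, the Hsp70 chaperone of the ER. It was at 1069 and 1094 CPM in CVP wild type, 801 and 815 CPM in clone 2.9 and 819.8 and 808 CPM in clone 2.10 (log2 fold change -0.42 ± 0.060, adjusted p = 0.000113). In FoP, Hspa5 was at 946 and 1068 CPM in FoP wild type, 767 and 834 CPM in clone 2.4 and 816 and 846 CPM in clone 2.5 (-0.30 ± 0.060, adjusted p = 0.00227). Every knock-out library lay below both wild type libraries of its line, and the duplicates of CVP lay close together. Hsp90b1, the ER Hsp90 also called GRP94, was at 812 and 816 CPM in CVP wild type, 629 and 638 CPM in clone 2.9 and 661 and 645 CPM in clone 2.10 (-0.34 ± 0.053, adjusted p = 0.00022). In FoP, Hsp90b1 was at 748 and 812 CPM in FoP wild type, 638 and 677 CPM in clone 2.4 and 694 and 661 CPM in clone 2.5 (-0.23 ± 0.054, adjusted p = 0.00716). The groups were again apart in both lines. The exons of Hsp90b1 overlap those of predicted genes on the same strand, so this count is less certain.

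Hyou1, a large nucleotide exchange partner of BiP, fell further in CVP. It was at 405 and 409 CPM in CVP wild type, 277 and 292 CPM in clone 2.9 and 268 and 276 CPM in clone 2.10 (-0.55 ± 0.052, adjusted p = 5.80e-06). In FoP, Hyou1 was at 326 and 342 CPM in FoP wild type, 294 and 315 CPM in clone 2.4 and 285 and 287 CPM in clone 2.5 (-0.18 ± 0.053, adjusted p = 0.023). The largest change of the group was in Dnajb9, the J-protein ERdj4 that hands substrates to BiP. It stood at 105 and 106 CPM in CVP wild type, 53.5 and 59.1 CPM in clone 2.9 and 59.2 and 61.3 CPM in clone 2.10 (-0.86 ± 0.065, adjusted p = 1.42e-06). In FoP, Dnajb9 was at 85.4 and 84.4 CPM in FoP wild type, 76.7 and 77.3 CPM in clone 2.4 and 73.7 and 66.2 CPM in clone 2.5 (-0.21 ± 0.066, adjusted p = 0.0316). In CVP all 4 knock-out libraries were far below wild type, and in FoP they were below it by a smaller step. Manf, a stress-induced secreted factor, fell in CVP (-0.27 ± 0.077, adjusted p = 0.0109) and was at -0.08 ± 0.077, adjusted p = 0.503 in FoP. The CVP call of Manf was kept under 22 of 26 alternatives, lost among others under library totals alone and without clone 2.9. Its exons overlap those of Rbm15b on the same strand, so its counts are less certain.

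A pair of cochaperones went the other way in CVP. Dnajb11, the J-protein ERdj3, rose (0.29 ± 0.075, adjusted p = 0.00709), and so did Sdf2l1, which works with it (0.38 ± 0.12, adjusted p = 0.0176; wild type 13.1 and 15.1 CPM, knock-out 16.1 to 20.4 CPM). Neither passed in FoP (0.08 ± 0.075 and 0.18 ± 0.12). Without CVP wild type 1 no gene of the 46 rose in CVP, Spcs1 included. Dnajc3, the J-protein p58IPK, and Creld2, an ER stress-induced protein, passed in neither line and lay between -0.09 and 0.13. The group's medians were -0.27 in CVP and -0.08 in FoP.

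The lectin chaperones and the isomerases hold the 3 most abundant genes of the 46 per kilobase, and their CVP medians (-0.10 and -0.07) lay nearest to 0 among the 8 role groups. Per kilobase of exon, the levels in CVP wild type were led by P4hb (316.3 CPM per kb), Pdia3 (314) and Calr (311), followed by Hspa5 (256), and ended with Derl3 (0.338). Calr, the soluble calcium-binding lectin chaperone, was at 905 and 887 CPM in CVP wild type, 869.8 and 833 CPM in clone 2.9 and 1000 and 846 CPM in clone 2.10 (-0.01 ± 0.071, adjusted p = 0.89). In FoP, Calr was at 749 and 799.9 CPM in FoP wild type, 771 and 782 CPM in clone 2.4 and 802 and 805 CPM in clone 2.5 (0.03 ± 0.071, adjusted p = 0.803). The groups overlapped in both lines. Canx, its membrane-bound relative, fell in CVP, where it was at 705 and 696 CPM in CVP wild type, 599.9 and 638 CPM in clone 2.9 and 633 and 602 CPM in clone 2.10 (-0.18 ± 0.054, adjusted p = 0.0146). In FoP, Canx was at 655 and 693 CPM in FoP wild type, 625 and 670.4 CPM in clone 2.4 and 677 and 649 CPM in clone 2.5 (-0.04 ± 0.054, adjusted p = 0.621), with overlapping groups.

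Of the 5 isomerases, Pdia3 and P4hb fell in CVP, where 22.9% of all genes fell. Pdia3, the disulfide isomerase that works with the lectin chaperones, stood at 964 and 1008 CPM in CVP wild type, 856 and 854 CPM in clone 2.9 and 949.6 and 859.7 CPM in clone 2.10 (-0.16 ± 0.060, adjusted p = 0.0388), and its call was lost without any one of 5 libraries of that line (largest adjusted p = 0.349 over all alternatives). In FoP, Pdia3 was at 783 and 844 CPM in FoP wild type, 868 and 861 CPM in clone 2.4 and 882 and 838 CPM in clone 2.5 (0.08 ± 0.060, adjusted p = 0.332). P4hb, the classical protein disulfide isomerase, was at 901 and 908 CPM in CVP wild type, 747 and 702 CPM in clone 2.9 and 741 and 708 CPM in clone 2.10 (-0.32 ± 0.066, adjusted p = 0.00149), with a clear gap between the groups. In FoP, P4hb was at 717 and 772 CPM in FoP wild type, 653 and 696 CPM in clone 2.4 and 759 and 749 CPM in clone 2.5 (-0.06 ± 0.066, adjusted p = 0.548), and the groups overlapped. Pdia4, a further isomerase, rose in FoP, where it was at 222 and 246 CPM in FoP wild type, 259 and 260.3 CPM in clone 2.4 and 284 and 273 CPM in clone 2.5 (0.20 ± 0.063, adjusted p = 0.0291). In CVP, Pdia4 was at 262 and 269.5 CPM in CVP wild type, 278 and 275 CPM in clone 2.9 and 310.5 and 291 CPM in clone 2.10 (0.12 ± 0.063, adjusted p = 0.136). The difference between these effects was 0.08 ± 0.088 (adjusted p = 0.589), so the rise is not shown to be particular to FoP. Without clone 2.5 no gene rose in FoP. Pdia6 and the prolyl isomerase Fkbp11 passed in neither line, at -0.07 to 0.07.

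Genes of ER-associated degradation fell in CVP for 6 of 9 (22.9% of all genes) and in FoP for 3 of 9 (15.3% of all genes), and none rose. Edem1 on chromosome 6 (108828641 to 108859356, plus strand), a mannosidase-like lectin that sends misfolded glycoproteins to degradation, changed most. It was at 126 and 119 CPM in CVP wild type, 74.2 and 76.2 CPM in clone 2.9 and 74.5 and 73.9 CPM in clone 2.10 (-0.71 ± 0.048, adjusted p = 7.25e-07). In FoP, Edem1 was at 107 and 118 CPM in FoP wild type, 83.5 and 85.6 CPM in clone 2.4 and 83.6 and 87.5 CPM in clone 2.5 (-0.40 ± 0.048, adjusted p = 8.21e-05). The 8 knock-out libraries of both lines lay within 73.9 to 87.5 CPM and below all 4 wild type libraries. Edem2, which makes an early mannose cut, fell in CVP, where it was at 72.1 and 71 CPM in CVP wild type, 52.5 and 55.8 CPM in clone 2.9 and 56.5 and 62.1 CPM in clone 2.10 (-0.34 ± 0.059, adjusted p = 0.000473). In FoP, Edem2 was at 57.6 and 58 CPM in FoP wild type, 56.2 and 59 CPM in clone 2.4 and 56.6 and 55.4 CPM in clone 2.5 (-0.02 ± 0.059, adjusted p = 0.806), with overlapping groups. Edem3 passed in neither line.

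Derl1 and Derl2 encode Derlins, membrane proteins of the retrotranslocation channel. Derl1 was at 119 and 111 CPM in CVP wild type, 81 and 83.7 CPM in clone 2.9 and 77.1 and 78.1 CPM in clone 2.10 (-0.52 ± 0.058, adjusted p = 1.80e-05). In FoP, Derl1 was at 108 and 109.6 CPM in FoP wild type, 80.1 and 84.8 CPM in clone 2.4 and 87.3 and 93.1 CPM in clone 2.5 (-0.33 ± 0.059, adjusted p = 0.00119), with groups apart in both lines. A predicted gene 95.4% identical to part of its transcript makes its counts less certain. Derl2 was at 53.1 and 54.6 CPM in CVP wild type, 49.4 and 49.6 CPM in clone 2.9 and 49 and 48.7 CPM in clone 2.10 (-0.13 ± 0.050, adjusted p = 0.0467). In FoP, Derl2 was at 52.5 and 55.5 CPM in FoP wild type, 46 and 46.8 CPM in clone 2.4 and 48.5 and 50.7 CPM in clone 2.5 (-0.17 ± 0.050, adjusted p = 0.0211). These steps are small, and the CVP call of Derl2 was lost under 17 of 26 alternatives, among them each library of CVP left out. Derl3 was under 1 CPM in every library and passed in neither line.

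Herpud1, a stress-induced scaffold of the degradation complex and the most abundant gene of the group, fell in CVP, where it was at 254 and 257 CPM in CVP wild type, 202 and 199.9 CPM in clone 2.9 and 189 and 202 CPM in clone 2.10 (-0.37 ± 0.076, adjusted p = 0.00156). In FoP, Herpud1 was at 229.8 and 246 CPM in FoP wild type, 212 and 214 CPM in clone 2.4 and 236 and 264 CPM in clone 2.5 (-0.04 ± 0.077, adjusted p = 0.757). Clone 2.4 lay under wild type there and clone 2.5 lay around it. Sel1l, the adaptor of the ubiquitin ligase HRD1, fell in CVP (-0.35 ± 0.067, adjusted p = 0.000993) and was at -0.10 ± 0.067, adjusted p = 0.281 in FoP. Syvn1, the ligase itself, was at -0.16 ± 0.068, adjusted p = 0.0722 and -0.10 ± 0.068, adjusted p = 0.288.

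**Figure D3:**
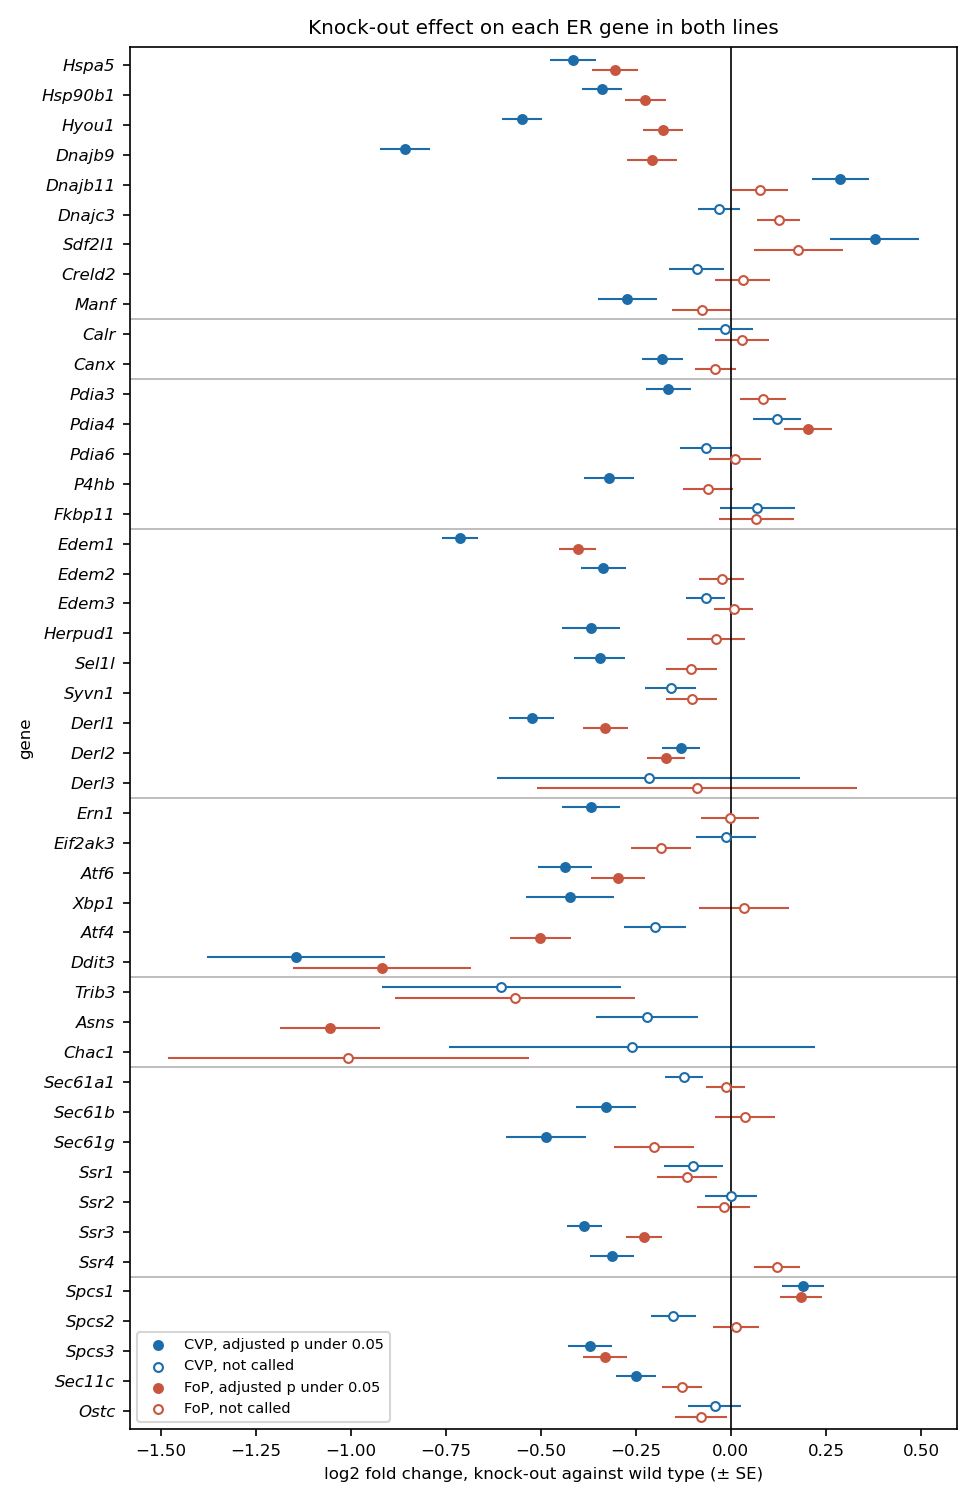
Log2 fold changes of knock-out against wild type (horizontal axis, ± SE) for each gene (vertical axis, by role) in CVP (blue) and FoP (red); filled points passed an adjusted p of 0.05. Most blue points lie left of the red points of the same gene, and Asns, Atf4 and Chac1 are among those where the red point lies further left.

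Of the sensors and transcription factors, 4 of 6 fell in CVP (22.9% of all genes) and 3 of 6 in FoP (15.3% of all genes). Atf6, the membrane-bound factor cut in the Golgi under stress, was at 139 and 138 CPM in CVP wild type, 103 and 109.7 CPM in clone 2.9 and 92.9 and 105 CPM in clone 2.10 (-0.44 ± 0.071, adjusted p = 0.000283). In FoP, Atf6 was at 129 and 139 CPM in FoP wild type, 112 and 115 CPM in clone 2.4 and 98 and 109.8 CPM in clone 2.5 (-0.30 ± 0.072, adjusted p = 0.00775). Its groups were apart in both lines. Ern1 encodes IRE1, the kinase and nuclease that splices Xbp1. It fell in CVP, where it was at 106 and 108 CPM in CVP wild type, 76.9 and 83.5 CPM in clone 2.9 and 81.2 and 89.8 CPM in clone 2.10 (-0.37 ± 0.076, adjusted p = 0.00154). In FoP, Ern1 was at 90.6 and 105 CPM in FoP wild type, 103 and 103 CPM in clone 2.4 and 95.4 and 89 CPM in clone 2.5 (-0.0029 ± 0.077, adjusted p = 0.984), with overlapping groups. Eif2ak3, which encodes PERK, was at -0.01 ± 0.079, adjusted p = 0.903 in CVP and -0.18 ± 0.079, adjusted p = 0.0989 in FoP.

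Xbp1, the factor made active by IRE1 splicing and known for building the secretory apparatus, already differed between the wild type lines. It fell in CVP, where it was at 471 and 551 CPM in CVP wild type, 346 and 357 CPM in clone 2.9 and 406 and 416 CPM in clone 2.10 (-0.42 ± 0.12, adjusted p = 0.0106). In FoP, Xbp1 was at 317 and 343 CPM in FoP wild type, 293 and 306 CPM in clone 2.4 and 379.8 and 373 CPM in clone 2.5 (0.03 ± 0.12, adjusted p = 0.861), with clone 2.4 below and clone 2.5 above wild type. The counts do not separate spliced from unspliced Xbp1 RNA. Its CVP call was lost without CVP wild type 2 or without clone 2.9 (largest adjusted p = 0.15 over all alternatives).

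Ddit3 on chromosome 10 (127290774 to 127296288, plus strand), which encodes CHOP, a factor tied to prolonged stress, had the largest CVP fall of all 46 genes. It was at 45.3 and 37.7 CPM in CVP wild type, 22.9 and 22.4 CPM in clone 2.9 and 12.3 and 17.5 CPM in clone 2.10 (-1.14 ± 0.23, adjusted p = 0.00292). In FoP, Ddit3 was at 49 and 53 CPM in FoP wild type, 22 and 32.2 CPM in clone 2.4 and 23.5 and 30.4 CPM in clone 2.5 (-0.92 ± 0.23, adjusted p = 0.0158). No knock-out library reached wild type in either line, though the knock-out libraries varied among themselves. Its exons overlap those of Mars on the opposite strand, and whether the counting used strand is not stated in what was used here. The FoP call was lost without either wild type library or either clone of that line (largest adjusted p = 0.14). Atf4, the master factor of amino acid and stress responses, fell in FoP, where it was at 336 and 352 CPM in FoP wild type, 224 and 249 CPM in clone 2.4 and 234 and 265 CPM in clone 2.5 (-0.50 ± 0.081, adjusted p = 0.000621). In CVP, Atf4 was at 289 and 247 CPM in CVP wild type, 247 and 247 CPM in clone 2.9 and 217 and 223 CPM in clone 2.10 (-0.20 ± 0.081, adjusted p = 0.0621), with overlapping groups.

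The ATF4 and CHOP targets varied most between libraries. Asns on chromosome 6 (7675169 to 7693254, minus strand), asparagine synthetase, was at 89.4 and 88.8 CPM in FoP wild type, 35.9 and 50.1 CPM in clone 2.4 and 37.4 and 48.1 CPM in clone 2.5 (-1.05 ± 0.13, adjusted p = 0.000203), a fall of 2.08-fold. The 4 knock-out libraries lay below both wild type libraries by a wide gap, and this was the single FoP call of the 46 kept under every alternative. In CVP, Asns was at 53.2 and 51.1 CPM in CVP wild type, 49.5 and 48.4 CPM in clone 2.9 and 41 and 40.2 CPM in clone 2.10 (-0.22 ± 0.14, adjusted p = 0.208), lower in knock-out in 4 of 4 libraries but not past the test.

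Trib3, a pseudokinase induced by CHOP, was at 51.5 and 43.2 CPM in CVP wild type, 40.1 and 38.9 CPM in clone 2.9 and 20.4 and 25.4 CPM in clone 2.10 (-0.60 ± 0.32, adjusted p = 0.152). In FoP, Trib3 was at 49.9 and 53.9 CPM in FoP wild type, 25.7 and 43.4 CPM in clone 2.4 and 26.9 and 44 CPM in clone 2.5 (-0.57 ± 0.32, adjusted p = 0.22). Chac1, a glutathione-degrading enzyme, was at 6.66 and 6.23 CPM in CVP wild type, 7.07 and 7.62 CPM in clone 2.9 and 3.31 and 3.53 CPM in clone 2.10 (-0.26 ± 0.48, adjusted p = 0.691). In FoP, Chac1 was at 7.06 and 7.13 CPM in FoP wild type, 2.04 and 5.2 CPM in clone 2.4 and 1.81 and 5.1 CPM in clone 2.5 (-1.01 ± 0.47, adjusted p = 0.145). In CVP clone 2.10 lay lower than clone 2.9 for both genes, and neither clone difference passed. In FoP, duplicate 1 lay below duplicate 2 in both clones for Trib3, Chac1, Asns and Ddit3, by 1.29 to 2.82 times. These 4 were the only ones of the 46 past 1.2 times in both clones, a ratio chosen after the values were seen. Nothing in the labels says what duplicates of the same number share.

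**Figure D4:**
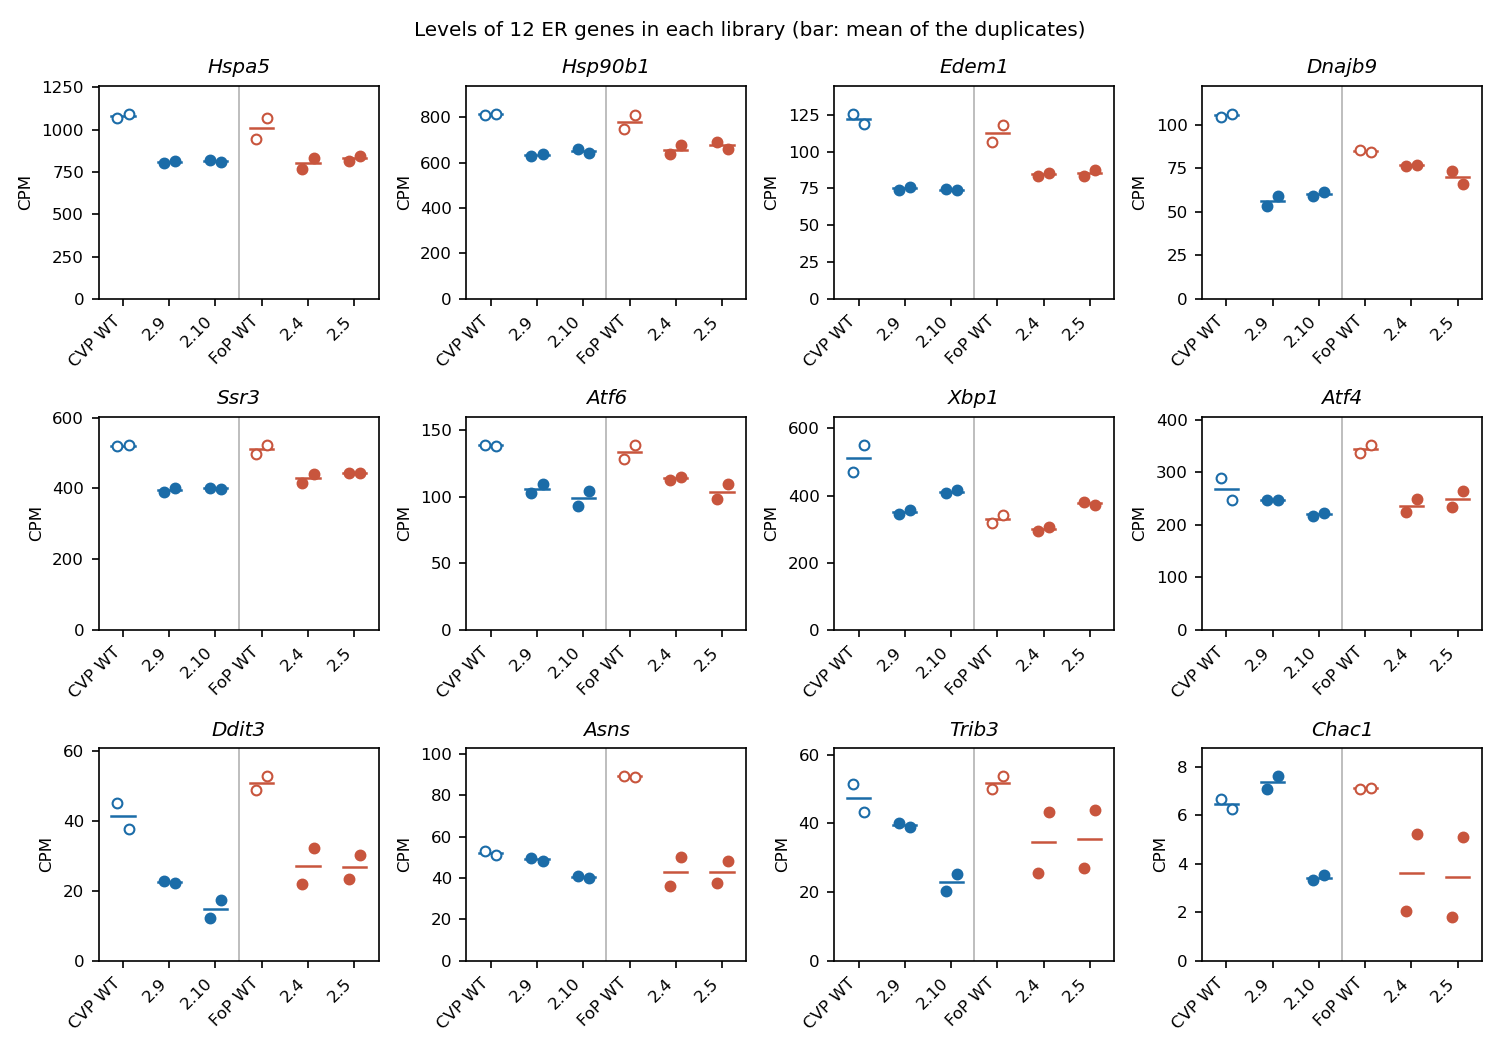
CPM (vertical axes, from 0) of 12 genes in each culture (horizontal axes); points are single libraries, open for wild type, and bars are means of duplicates. Hspa5, Hsp90b1, Edem1, Ssr3 and Atf6 lie below wild type in each knock-out library of both lines, with wild type duplicates of Hspa5 further apart in FoP than in CVP, Asns drops in FoP, and duplicates of Trib3 and Chac1 are spread in FoP.

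At the translocon, 4 of 7 genes fell in CVP (22.9% of all genes) and 1 of 7 in FoP, the latter near the 15.3% of all genes. Sec61b, the beta subunit of the channel, was at 49 and 50.7 CPM in CVP wild type, 36.5 and 40.4 CPM in clone 2.9 and 40.3 and 41.6 CPM in clone 2.10 (-0.33 ± 0.079, adjusted p = 0.00415). In FoP, Sec61b was at 40.1 and 38 CPM in FoP wild type, 36.7 and 37.1 CPM in clone 2.4 and 44.5 and 42 CPM in clone 2.5 (0.04 ± 0.080, adjusted p = 0.776). Sec61g, the gamma subunit, was at 19.6 and 20.4 CPM in CVP wild type, 14.1 and 15.9 CPM in clone 2.9 and 12 and 15.2 CPM in clone 2.10 (-0.49 ± 0.10, adjusted p = 0.00207). In FoP, Sec61g was at 18.1 and 17.6 CPM in FoP wild type, 14.7 and 16.2 CPM in clone 2.4 and 16.9 and 14.3 CPM in clone 2.5 (-0.20 ± 0.11, adjusted p = 0.177). The knock-out libraries of Sec61g lay below wild type in both lines. Its counts are uncertain, as 4 predicted genes match part of its transcript at 95% identity or more, the longest match at 100%. The pore subunit Sec61a1 was at -0.12 ± 0.051, adjusted p = 0.0634 and -0.01 ± 0.051, adjusted p = 0.873.

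The Ssr genes encode the translocon-associated protein complex TRAP, which helps some chains into the channel. Ssr3, the most abundant of them, was at 519 and 522 CPM in CVP wild type, 390.3 and 402 CPM in clone 2.9 and 402 and 399 CPM in clone 2.10 (-0.39 ± 0.046, adjusted p = 3.12e-05). In FoP, Ssr3 was at 498 and 523 CPM in FoP wild type, 416 and 440.3 CPM in clone 2.4 and 445 and 443 CPM in clone 2.5 (-0.23 ± 0.047, adjusted p = 0.00287), apart in both lines. Ssr4, on chromosome X, split the lines: it was at 87 and 83.8 CPM in CVP wild type, 67.5 and 65.3 CPM in clone 2.9 and 67.8 and 74.5 CPM in clone 2.10 (-0.31 ± 0.059, adjusted p = 0.000793). In FoP, Ssr4 was at 74.5 and 70.1 CPM in FoP wild type, 75.3 and 77.2 CPM in clone 2.4 and 82.7 and 79.4 CPM in clone 2.5 (0.12 ± 0.060, adjusted p = 0.15). Every CVP knock-out library lay below wild type and every FoP one above it. Ssr1 and Ssr2 passed in neither line.

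Subunits of the signal peptidase, which cuts signal peptides from entering chains, moved apart. Spcs3 was at 177 and 189 CPM in CVP wild type, 136 and 152 CPM in clone 2.9 and 133 and 146 CPM in clone 2.10 (-0.37 ± 0.058, adjusted p = 0.000205). In FoP, Spcs3 was at 196 and 204 CPM in FoP wild type, 153 and 157 CPM in clone 2.4 and 162 and 164 CPM in clone 2.5 (-0.33 ± 0.058, adjusted p = 0.00107), lower in each knock-out library. Spcs1 was at 86.2 and 94.8 CPM in CVP wild type, 106 and 98.5 CPM in clone 2.9 and 108 and 101 CPM in clone 2.10 (0.19 ± 0.055, adjusted p = 0.0136). In FoP, Spcs1 was at 84 and 83 CPM in FoP wild type, 92.8 and 91.1 CPM in clone 2.4 and 97.3 and 98.3 CPM in clone 2.5 (0.18 ± 0.055, adjusted p = 0.0238), higher in each knock-out library. Spcs1 was the single gene of the 46 to rise in both lines, but its FoP call was kept under only 18 of 26 alternatives. Its exons overlap those of Glt8d1 on the opposite strand, and whether the counting used strand is not stated. Sec11c, a catalytic subunit, fell in CVP (-0.25 ± 0.053, adjusted p = 0.00182) and was at -0.13 ± 0.053, adjusted p = 0.0903 in FoP. Spcs2 and the oligosaccharyltransferase subunit Ostc passed in neither line.

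Across the lines, 11 genes fell in both (23.9%, against 10.1% of all genes): Hspa5, Hsp90b1, Hyou1, Dnajb9, Edem1, Derl1, Derl2, Atf6, Ddit3, Ssr3 and Spcs3. With duplicates summed per culture none of the 11 passed in both lines, since the FoP calls were lost. A further 13 passed downward in CVP and not in FoP (28.3%, against 12.3%), and 16 passed in neither line (34.8%, against 45.2%). Atf4 and Asns passed downward in FoP and not in CVP, a share of 4.35% near the 4.66% of all genes. The log2 fold changes were negative in both lines for 30 of the 46 (65.2%, against 33.3% of all genes), and 35 lay farther from 0 in CVP (76.1%, against 63% of all genes). Over the 46 genes the changes of the lines, which share no library, had a Pearson r of 0.56 and a Spearman rho of 0.64; over all 17076 genes these were 0.49 and 0.49, as descriptions across genes that are not independent.

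**Figure D5:**
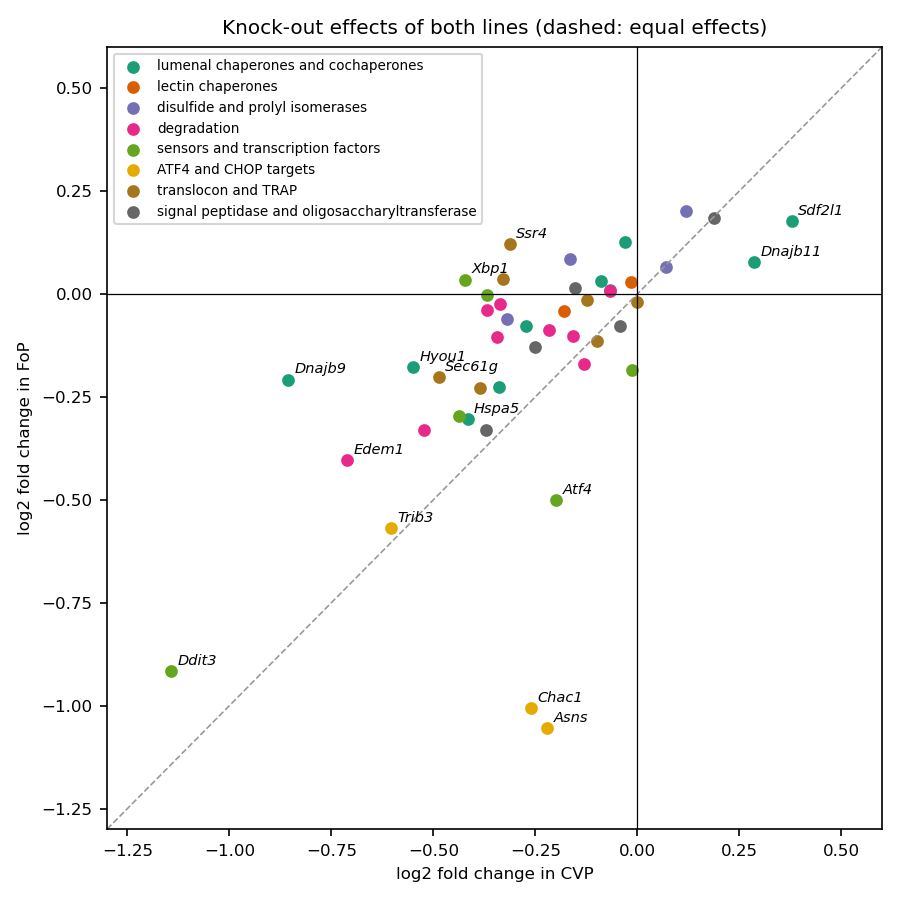
Log2 fold change of each gene in CVP (horizontal axis) and FoP (vertical axis), coloured by role, with a dashed line of equal effects. Most points lie left of 0 and above the dashed line, and Asns, Chac1 and Atf4 lie below it.

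The difference of the effects was tested directly, as FoP effect minus CVP effect. It passed upward for 7 genes and downward for 1, against 7.28% and 8.49% of all genes, and the median of the 46 was 0.12 against -0.02. The effect was higher in FoP than in CVP for Dnajb9 (0.65 ± 0.094, adjusted p = 0.00154), Ssr4 (0.43 ± 0.084, 0.00567), Hyou1 (0.37 ± 0.075, 0.00694), Ern1 (0.37 ± 0.11, 0.0387), Sec61b (0.37 ± 0.11, 0.0445), Edem2 (0.31 ± 0.084, 0.0254) and Edem1 (0.31 ± 0.069, 0.0111). All 7 fell in CVP, and in FoP the fold changes of Ssr4 and Sec61b were above 0 without passing. The effect was lower in FoP for Asns alone (-0.83 ± 0.19, 0.0153). Library totals without further scaling moved the median difference of all genes from -0.02 to -0.13; 3 of the 46 then passed upward and 2 downward (5 genes, or fewer than the 19.7% of all genes that passed), and the members' median was 0.01. In both directions together 8 of the 46 passed, against 15.8% of all genes, a share near that background. The count became 3 without CVP wild type 1 (6.46% of all genes) or without FoP wild type 1 (6.96%) and 4 without CVP wild type 2 (8.97%). It was 5 without FoP wild type 2 (7.26%) or without clone 2.9 (14.6%).

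The wild type lines differed too. Relative to CVP wild type, 9 of the 46 genes were lower and 2 higher in FoP wild type, against 2.91% and 3.77% of all genes, with a median of -0.10 against 0.01. This comparison shares its libraries with those above. Xbp1 was lower (-0.63 ± 0.14, adjusted p = 0.0205), as were Hyou1, Dnajb9, Dnajc3, Pdia3, P4hb, Edem2, Sel1l and Sec61b, at -0.24 to -0.35. Asns (0.77 ± 0.16, 0.0179) and Atf4 (0.36 ± 0.095, 0.0397) were higher. With any 1 of the 4 wild type libraries left out, none of these 11 passed; 1 of the 2 arms then rests on 1 library.

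Each clone was also set against the wild type of its line, with the spread of duplicates alone, and the 2 clones of a line share that wild type. Clone 2.9 had 26 of the 46 genes lower and 3 higher (all genes 23.6% and 23.4%). Clone 2.10 had 26 and 4 (24.4% and 25.2%), and 22 genes were lower in both clones (47.8%, against 19.7% of all genes). In FoP, clone 2.4 had 13 lower and 0 higher (17.3% and 15.1%), and clone 2.5 had 14 and 5 (18.1% and 16.3%), with 10 lower in both (21.7%, against 12.7%). Of the 11 genes that fell in both lines, 8 were lower in each of the 4 clones: Hspa5, Hsp90b1, Edem1, Derl1, Atf6, Ddit3, Ssr3 and Spcs3 (17.4% of the 46, against 7.75% of all genes). These counts share wild type libraries with each other and with the calls by line, so they are no further support. Hyou1 and Dnajb9 passed in 3 clones, missing in clone 2.4, and Derl2 passed in 2. Of the FoP risers, Pdia4 and Spcs1 passed in clone 2.5 and not in 2.4. Xbp1 (0.19 ± 0.069, adjusted p = 0.0449), Ssr4 and Dnajc3 were higher in clone 2.5 too.

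Few of the 46 genes passed between the clones of a line, which does not show these clones to be alike, as each had only duplicates. Clone 2.10 differed from 2.9 in Ssr2 alone, upward (0.20 ± 0.051, adjusted p = 0.0365), with 1 higher and 0 lower against 2.89% and 2.54% of all genes. Clone 2.5 lay above 2.4 for Xbp1 (0.33 ± 0.069, 0.00916), Ssr1 (0.25 ± 0.051, 0.00755), Herpud1 (0.23 ± 0.060, 0.0325) and Sec61b (0.23 ± 0.065, 0.0493). The share higher was 8.7% against 3.53% of all genes, and 0 were lower against 3.72%. Gland markers stood in the same order in FoP, summing to 54.9 and 54.5 CPM in clone 2.4 and 148.5 and 156 CPM in clone 2.5. They also split the CVP clones, at 87.8 and 87.2 CPM in clone 2.9 and 258 and 208.5 CPM in clone 2.10, where Ssr2 alone of the 46 passed. Their part was not tested. With FoP 2.4 duplicate 1 left out none of the 4 passed, and 1 passed without any other single duplicate of these clones.

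Other genes of the secretory route were read from lists beside the 46, chosen with earlier results of these data known. As background, 22.9% of all genes fell and 23.5% rose in CVP, and 15.3% fell and 13.5% rose in FoP. Of 10 oxidative folding genes, 7 fell in CVP and 3 in FoP, and none rose. Ero1l, the oxidase that recharges disulfide isomerases, went from 1255 and 1401 CPM in CVP wild type down to 169 to 439 CPM in knock-out (-2.12 ± 0.37, adjusted p = 0.00146). Agr2, a mucous cell disulfide isomerase that is also on the gland marker list, was at -3.11 ± 0.23 in CVP and -1.60 ± 0.23 in FoP. Ero1lb fell in both lines too (-0.75 ± 0.080 and -0.27 ± 0.081). Among 15 glycosylation genes, 8 fell and 1 rose in CVP, and 2 fell and 3 rose in FoP; Tusc3, an oligosaccharyltransferase subunit, rose in both (0.50 ± 0.072 and 0.42 ± 0.072).

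Of 14 targeting genes, 8 fell and 0 rose in CVP (all genes 22.9% and 23.5%), and 4 fell and 1 rose in FoP (15.3% and 13.5%). Srp68 of the signal recognition particle was at -0.76 ± 0.062 and -0.47 ± 0.062, and Srpr, its receptor, at -0.59 ± 0.046 and -0.38 ± 0.046. Of 14 genes of ER to Golgi transport, 9 fell in CVP and 7 in FoP and none rose, led by the coat protein Sec23a (-0.75 ± 0.061 and -0.55 ± 0.062) in CVP and the retrieval receptor Kdelr3 (-0.61 ± 0.11 and -0.81 ± 0.11) in FoP. A second list of 13 degradation genes was mixed, with 5 lower and 2 higher in CVP and 4 and 1 in FoP; the ubiquitin-conjugating enzyme Ube2g2 fell (-0.60 ± 0.068 and -0.55 ± 0.068) and the lectin Os9 rose (0.25 ± 0.065 and 0.56 ± 0.066).

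Of 22 integrated stress response genes, 11 fell and 4 rose in CVP (all genes 22.9% and 23.5%), and 10 fell and 1 rose in FoP (15.3% and 13.5%). Psat1, of serine synthesis, was at -1.50 ± 0.26 and -1.78 ± 0.26, and the factor Atf3 at -1.22 ± 0.24 and -1.61 ± 0.24. The cystine transporter Slc7a11 fell in CVP (-2.55 ± 0.32). Cth, which makes cysteine, rose in both lines (1.07 ± 0.16 and 0.49 ± 0.15). Among 8 other ER and secretory factors, 3 rose in each line and 2 fell in CVP, the falls near the share of all genes. Mbtps1, the Golgi protease that cuts ATF6, rose (0.84 ± 0.090 and 0.70 ± 0.090) while Atf6 fell, and the relative Atf6b rose as well (0.31 ± 0.063 and 0.24 ± 0.063). Of 10 heat shock genes outside the ER, 4 rose and 3 fell in CVP and 1 rose in FoP, where Dnajb1 passed (0.33 ± 0.083).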

How the data were processed

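Expression was measured by RNA sequencing of poly(A) RNA in 12 organoid libraries, stranded per the labels' protocols. The deposited table holds raw counts per gene, for which the submitters' processing notes name STAR, featureCounts and the hg38 genome without versions; its gene symbols are those of mouse, and whether strand was used is not stated in what was used here. Low counts of 2 and 4 were more frequent than 1 and 3 (20289 and 10030 against 20007 and 6626 values), which was not explained, so halved counts were an alternative.

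Low genes were left out by filterByExpr with the 4 arms as groups (line by genotype); the rest were scaled by TMM (factors 0.954 to 1.05) and fitted with the robust quasi-likelihood test of edgeR 4.0.16 in R 4.3.3, adjusted by Benjamini-Hochberg over the 17076 tested genes at a threshold of 0.05. Clones came from a fit of the 6 cultures. The SE was approximated by dividing the log2 fold change by the square root of F. CPM uses TMM-scaled totals, and CPM per kb the union exon length of GENCODE M21 (GRCm38). Annotated transcripts were compared with BLAST 2.17.0 (at least 95% identity over 200 bases) to find near-identical copies, which 3 of the 46 genes had; 14 shared exon bases with another gene. The fit was also run on simulated independent libraries with larger changes than most found here. That run cannot speak for smaller changes or for duplicates that share a culture.

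The 46 genes, their roles and all lists were chosen with earlier results of these data known. Library values are given for the most abundant gene and the largest called change of each role, for genes called in both lines and for genes called in the difference between lines; those of Atf4, Trib3, Chac1 and Sdf2l1 were added after their values were seen. For other lists up to 3 called genes with the largest changes are named. Duplicate numbers were not used to pair libraries in the main fit. Correlations of duplicate differences between cultures, over all tested genes, ran from -0.0556 to 0.114. They say little about shifts shared by few genes, such as those of Trib3, Chac1, Asns and Ddit3 in the FoP clones. Alternatives were DESeq2 size factors, library totals alone, no filter, a filter of 1 CPM in 4 libraries, the Wald test of DESeq2 1.42.0, voom of limma 3.58.1 with culture as block, 1 line per fit, duplicates summed per culture, the duplicate number as a block, halved counts, and each library and each clone left out.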

Additional observations from a re-analysis of the deposited data

Results flagged for a closer look

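Among 92 sets of 4 knock-out libraries, 3 had a library far from the other 3 by Dixon's test, which chance gives in about 1 of 20 sets. Herpud1 was at 188.8 CPM in clone 2.10 duplicate 1 against 199.9 to 202 CPM in the other CVP knock-out libraries. Pdia3 was at 949.6 CPM in the same library against 854 to 859.7 CPM. Ssr3 was at 416 CPM in clone 2.4 duplicate 1 against 440.3 to 445 CPM in the other FoP knock-out libraries.

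The effect of knock-out differed between the lines by test for 8 genes, a share near that of all genes, given as FoP effect minus CVP effect on the log2 scale. Of the 46 genes, 15.2% passed upward and 2.17% downward, against 7.28% and 8.49% of all genes. Of these 8 calls, 0 were kept under every alternative. The difference was 0.37 for Hyou1, 0.65 for Dnajb9, 0.31 for Edem1, 0.31 for Edem2, 0.37 for Ern1, 0.37 for Sec61b, 0.43 for Ssr4 and -0.83 for Asns.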

How the results depend on the processing

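No member changed sign among its calls in the arm comparisons under any of the 26 alternatives. Of the calls, 11 of 27 in CVP, 1 of 15 in FoP, 0 of 8 for the difference between lines and 0 of 11 between the wild types were kept under all that gave a value. With duplicates summed per culture (6 samples, 2 residual degrees of freedom), genes lower numbered 11 in CVP and 1 in FoP, and genes higher in CVP, genes higher in FoP, differences between lines and differences between wild types each numbered 0. Under library totals alone the counts were 1 higher in FoP, 5 differences between lines, 6 between wild types, 0 between CVP clones and 2 between FoP clones. With voom they were 0 higher in FoP, 5 differences between lines and 3 between wild types. The duplicate number as a replicate block left 5 wild type differences and 0 between CVP clones, and moved no other count by over 1.5 times. The DESeq2 Wald test gave 13 differences between lines and 2 between CVP clones, no filter 2 and 1 line per fit 3 between CVP clones. Without clone 2.5, 0 genes were higher in FoP, and without clone 2.9, 5 differed between lines. With single libraries or clones left out, counts ran from 0 to 3 higher and 20 to 27 lower in CVP, 0 to 2 higher and 5 to 14 lower in FoP, 3 to 11 for the difference, 0 to 13 between wild types, 8 to 14 lower in clone 2.4, 8 to 15 in clone 2.5, 0 to 2 between CVP clones and 0 to 4 between FoP clones; over single libraries alone the difference ran from 3 to 10, the wild types from 0 to 12 and CVP falls from 20 to 26. The cause was not tested. An arm left with 1 library is assumed to vary like the others. Depth limits Derl3, which was under 1 CPM.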
